A study of Mus musculus with 3 samples.

Results

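The 8 genes Gata6, Prg4, Timp2, Icam2, Serpinb2, Fcna, Lyve1 and Cd5l were followed in single CD45+ cells of the mouse small intestinal muscularis, the muscle layer of the gut wall. They were chosen by name, with earlier results of these data known, so counts among them are not independent of the data, and all 8 were among the 14148 genes of the tables. Cells were sorted from female WT C57BL/6J mice of 12 weeks, either naïve or 24 h or 72 h after intestinal manipulation, a surgical handling of the gut that inflames its muscle layer. Each time point was 1 library pooled from 3 to 4 mice, so no spread between animals can be given. A level is the number of UMIs of a gene per 1000000 UMIs of its group of cells (CPM). Intervals are at 95%, by the exact Poisson method for levels, by Clopper-Pearson for shares of cells, and by the conditional Poisson method for the ratio of a pair of levels. They cover counting error only. Where a group held 0 UMIs, "at least" sets that group at a floor of 3 UMIs, and the lower limit of the interval, which lies below that value, is given beside it.

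GATA6 is the transcription factor that sets the program of large Mφs in the peritoneal cavity. Prg4 (the lubricin proteoglycan), Serpinb2 (an inhibitor of plasminogen activators), Icam2 (an adhesion molecule that binds the integrin LFA-1) and Cd5l (a secreted scavenger receptor cysteine-rich protein) are known as genes of those cells. Fcna encodes ficolin A, a lectin that starts the lectin pathway of complement, Lyve1 encodes a hyaluronan receptor of lymphatic endothelium and of perivascular Mφs, and Timp2 encodes an inhibitor of metalloproteinases.

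GATA factors bind short motifs, and 2 promoters are shown because the GATA letters can be read in one of them and not in the other, although both genes were detected in Gata6 cells. The motif AGATAA and its variant AGATAG, as well as TGATAA and its variant TGATAG, were searched on both strands in the 250 bases before each RefSeq start site (GRCm38.p6), and a match of any of the 4 is in capitals, printed 5′ to 3′ on the strand of the gene. Of 32851 promoter windows, 26.5% held a match and 6.40% held 2 or more. A match describes the letters only and is no evidence of binding.
Cd5l, chr3:87357631-87357880, plus strand: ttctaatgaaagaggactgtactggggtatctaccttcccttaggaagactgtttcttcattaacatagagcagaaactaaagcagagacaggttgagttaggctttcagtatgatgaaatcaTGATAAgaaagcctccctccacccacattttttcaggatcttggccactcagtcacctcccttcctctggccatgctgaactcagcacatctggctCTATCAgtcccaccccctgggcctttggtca
Serpinb2, chr1:107511173-107511422, plus strand: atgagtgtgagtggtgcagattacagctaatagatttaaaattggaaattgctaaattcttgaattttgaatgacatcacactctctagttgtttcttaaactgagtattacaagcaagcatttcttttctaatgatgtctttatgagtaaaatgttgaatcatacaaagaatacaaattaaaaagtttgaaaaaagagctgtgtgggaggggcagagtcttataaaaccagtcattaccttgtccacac
Cd5l held TGATAA 127 bases before the start site and TGATAG on the opposite strand 31 bases before it. The Serpinb2 window held none, whereas the window of a second Serpinb2 start site, which lies inside the gene, held AGATAA 41 bases before that start. No match was found in the windows of Fcna and Timp2. No promoter window is reported here for Gata6, Prg4, Icam2 and Lyve1. In the GENCODE M21 annotation of GRCm38, the genes other than Gata6, whose position is not reported here, lie at chr1:150449412-150466165 (Prg4), chr1:107511423-107535478 (Serpinb2), chr2:25624666-25628030 (Fcna), chr3:87357881-87371073 (Cd5l), chr7:110850607-110863239 (Lyve1), chr11:106377656-106388075 (Icam2) and chr11:118301069-118355740 (Timp2). Timp2 overlaps Cep295nl on the same strand and Prg4 overlaps Tpr on the opposite strand, and whether the counting used strand is not given in the sources used here. Serpinb2 also overlaps 1 gene on the same strand and Fcna 1 gene on the opposite strand, neither of them among the genes counted here.

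The libraries held 652 naïve cells, 2211 cells at 24 h and 1239 cells at 72 h, with 1865221, 10542346 and 5246731 UMIs and medians of 2134.5, 4669 and 3295 UMIs per cell. Each pair of libraries shared 1 barcode. Cells were clustered without the 8 genes and without a list of 17 cavity Mφ genes, and clusters were named from markers. Monocyte/Mφ-like cells numbered 140 (naïve), 1540 (24 h) and 577 (72 h). Their median depth was 3310, 5924.5 and 5306 UMIs, against 1993, 1136 and 1911.5 UMIs in all other cells.

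Gata6, the regulator, was the rarest of the 8. Naïve and 24 h cells held 1 UMI each and 72 h cells held 15, all in monocyte/Mφ-like cells. At 72 h this gave 4.84 CPM (2.71 to 7.98) from 9 of 577 cells, against 0.111 CPM at 24 h and 2.02 CPM in naïve mice. None of the 662 other cells at 72 h had a Gata6 UMI, which allows a share of up to 0.453% by 3 counts (Clopper-Pearson upper limit 0.556%). The monocyte/Mφ-like level was at least 3.46-fold higher (lower limit 2.49).

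Prg4 was more abundant. Monocyte/Mφ-like cells held 9, 2 and 84 UMIs in the naïve, 24 h and 72 h libraries, or 18.2, 0.223 and 27.1 CPM. The 24 h level therefore lay below both others, and the intervals of naïve (8.33 to 34.6 CPM) and 72 h (21.6 to 33.6 CPM) overlapped. Of the 84 UMIs, 17 came from 1 cell. Outside these cells Prg4 had 3 UMIs, all at 72 h, in 1 DC-like, 1 neutrophil-like and 1 T/ILC-like cell.

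Serpinb2 was read in monocyte/Mφ-like cells alone, with 0 UMIs in the other cells of each library. Levels were 24.3 CPM in naïve, 3.68 CPM at 24 h and 26.8 CPM at 72 h, from 3, 17 and 30 cells. Its 72 h level was at least 19.2-fold above that of the other cells (lower limit 15.2). The naïve value rested on few cells, since 1 of the 3 held 10 of the 12 UMIs.

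Cd5l differed from these in its 24 h level. It stood at 32.4 CPM in naïve, 20.6 CPM (17.8 to 23.8) at 24 h and 35.5 CPM (29.2 to 42.8) at 72 h, with 8, 83 and 52 positive cells. At 24 h 116 of its 185 monocyte/Mφ-like UMIs came from 38 cells of an unnamed subcluster led by Ltc4s, Tppp3 and Rhoc. None of the 83 Cd5l cells at 24 h had a Prg4 UMI, 1 had a Gata6 UMI and 2 had a Serpinb2 UMI. Among all 1540 monocyte/Mφ-like cells at 24 h, only 2 had Prg4, 1 had Gata6 and 17 had Serpinb2. With so few cells, whether Cd5l was apart from these genes could not be judged.

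Icam2 was the least bound to Mφs. Over all libraries its level was 47.3 CPM in B-like, 41.5 CPM in T/ILC-like and 24.3 CPM (21.6 to 27.2) in monocyte/Mφ-like cells, and the first pair overlapped in their intervals. DC-like cells (5.96 CPM) and neutrophil-like cells (5.32 CPM) stood lowest and overlapped with each other. These pooled levels mix cell class with time point, because 1540 of the monocyte/Mφ-like cells came from 24 h. Class levels within a library are not reported here. Within monocyte/Mφ-like cells Icam2 measured 52.6 CPM in naïve, 17.6 CPM at 24 h and 39.0 CPM at 72 h. All other cells had 41.6, 13.4 and 23.3 CPM, so monocyte/Mφ-like cells were not the lower group in any library. The ratios in naïve (1.27, 0.764 to 2.05) and at 24 h (1.32, 0.834 to 2.19) had intervals that included 1.

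Fcna and Lyve1 both had their lowest level at 24 h. Fcna measured 40.5, 1.23 and 77.8 CPM in monocyte/Mφ-like cells of the naïve, 24 h and 72 h libraries, from 10, 10 and 92 cells. Lyve1 measured 12.1, 0.780 and 18.7 CPM, from 4, 6 and 15 cells, and 1 cell held 20 of its 58 UMIs at 72 h. In that library 2 of 135 T/ILC-like cells, which should lack Fcna, had an Fcna UMI (1.48%, median depth 2704 UMIs), against 15.9% (13.1 to 19.2) of monocyte/Mφ-like cells (median depth 5306). After thinning every cell to the same 1500 UMIs these shares were 0.746% and 7.46%. The clusters named B-like held 16 Fcna UMIs at 72 h, 15 of them in 1 cell of a cluster led by the cell division genes Pclaf and Stmn1, which had 0 of 6 B cell markers and 6 of 11 monocyte/Mφ markers.

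Timp2 was the most abundant and the most widely read. Monocyte/Mφ-like levels were 263, 99.1 and 315 CPM, with a UMI in 70 of 140, 496 of 1540 and 354 of 577 cells, which after thinning to 1500 UMIs per cell was 29.8%, 12.6% and 31.5%. Other cells had 35.7, 61.0 and 61.9 CPM. Neutrophil-like cells, at a median of only 923 UMIs, had 106 CPM (84.4 to 132) over all libraries and T/ILC-like cells 77.5 CPM (61.8 to 95.9), whose intervals overlapped. DC-like cells (33.6 CPM) and B-like cells (20.7 CPM) were lowest and overlapped. An unnamed cluster of 52 cells at 24 h, led by Pdcd1lg2 and Gstm1, reached 425 CPM from 24 UMIs in 11 cells.

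**Figure D1:**
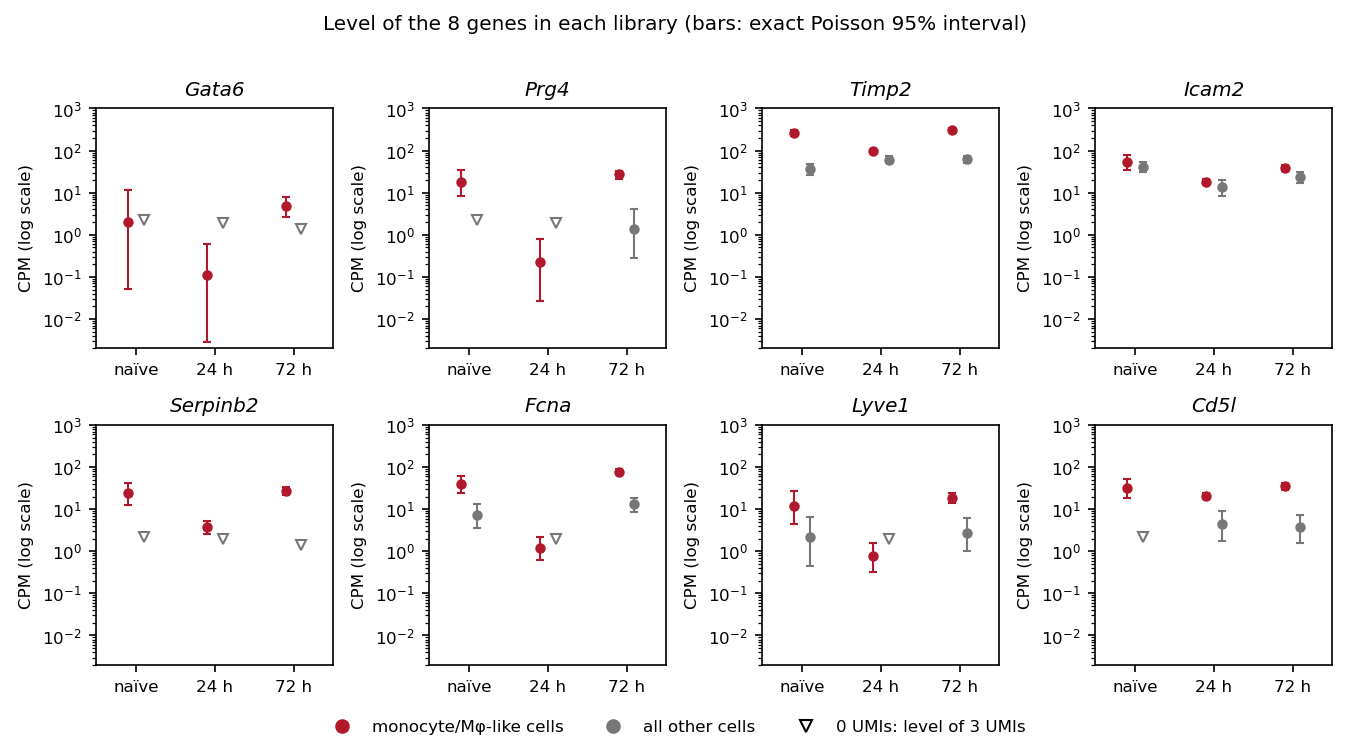
Level of each gene (CPM, log axis) in the naïve, 24 h and 72 h library, in monocyte/Mφ-like cells (red) and all other cells (grey). Bars are exact Poisson 95% intervals and open triangles mark groups with 0 UMIs at the level of 3 UMIs. In monocyte/Mφ-like cells all 8 genes had their lowest value at 24 h. For Gata6 and Cd5l the interval of the 24 h over naïve ratio included 1. Icam2 and Timp2 were also read in the other cells at every time point.

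A gene was counted as past 2-fold where the ratio was at least 2 or at most 0.5, its interval lay on one side of 1, and both groups together held at least 10 UMIs. From naïve to 24 h, 6 of the 7 genes with enough UMIs were lower in monocyte/Mφ-like cells, where 8.87% of all 10578 genes tested were lower and 5.86% higher. The ratio was lowest for Prg4, at 0.0122 (0.00129 to 0.0591), and then for Fcna, at 0.0303 (0.0131 to 0.0663). Lyve1 followed at 0.0643 and Serpinb2 at 0.151, while Icam2 at 0.335 and Timp2 at 0.377 stood nearest to 1. Cd5l had a ratio of 0.637 (0.382 to 1.14). When each cell counted equally, the Serpinb2 ratio was 0.748 and the Prg4 ratio 0.0695.

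From 24 h to 72 h, 7 of the 8 genes were higher, where 7.63% of 10981 genes were higher and 3.35% lower. Ratios were 63.4 (34.8 to 129) for Fcna, 24.0 (10.9 to 62.3) for Lyve1, 7.28 (4.81 to 11.3) for Serpinb2, 3.17 for Timp2 and 2.22 for Icam2. With 2 UMIs of Prg4 and 1 of Gata6 at 24 h, their ratios of 122 (32.6 to 1020) and 43.4 (6.68 to 1828) were wide. Cd5l stayed under 2-fold, at 1.72 (1.35 to 2.19). The median ratio of the 8 genes was 15.6, beside 1.02 over all genes tested.

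Between naïve and 72 h, 0 of the 8 genes were past 2-fold in either direction, where 2.51% of 9728 genes were higher and 4.14% lower. Gata6 had the highest ratio, at 2.39, with an interval (0.368 to 101) that included 1. Fcna stood at 1.92 (1.22 to 3.20), and Icam2 had the lowest ratio, at 0.742 (0.483 to 1.18), which was 1.35 when each cell counted equally. This count depended on the processing. When each cell counted equally 4 genes were past 2-fold higher, after thinning Prg4 was at 6.10 (1.005 to 249.5), and without cells under 500 genes or over 5% mitochondrial UMIs Fcna was at 2.58 (1.41 to 5.27). The naïve intervals were wide, since 140 cells were behind them: for Prg4 the ratio of 1.49 spanned 0.748 to 3.37, so that a 2-fold difference was not detectable at this depth. These 3 ratios share libraries and are not independent of each other.

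At 72 h, 7 of the 8 genes were past 2-fold higher in monocyte/Mφ-like than in all other cells, where 7.43% of 10772 genes were higher and 14.5% lower. The exception was Icam2, at 1.68 (1.2 to 2.38). After thinning, its ratio was 0.978 (0.564 to 1.71). Fcna, at 5.96, Lyve1, at 6.70, and Cd5l, at 9.53, moved with the clustering: a resolution of 1.2 gave 14.9 for Fcna and 28.8 for Lyve1, and 15 and 10 principal components gave 26.7 for Cd5l. Of the UMIs in other cells, 16 of 28 for Fcna and 5 of 6 for Lyve1 came from 3 cells of the dividing cluster that carried 6 to 9 of 11 monocyte/Mφ markers and at most 1 of 6 B cell markers. Without that cluster the ratios were 11.8 (6.65 to 23.2) for Fcna and 34.2 (5.89 to 1372) for Lyve1. In the naïve library 4 of 5 genes with enough UMIs were higher, namely Timp2 (7.36), Fcna (5.55), Cd5l (at least 14.8-fold, lower limit 10.7) and Serpinb2 (at least 11.1-fold, lower limit 7.71), where 11.9% of 9245 genes were higher and 16.5% lower. All 10 Fcna UMIs of the naïve other cells lay in 3 cells with 6 to 9 monocyte/Mφ markers, 2 of them in the dividing cluster, without which the ratio was 8.54 (3.11 to 29.1). At 24 h 2 of 5 were higher, Serpinb2 (33 against 0 UMIs, at least 1.93-fold, lower limit 1.48) and Cd5l (4.63, 2.20 to 11.7), where 6.22% of 10941 genes were higher and 13% lower. Serpinb2 was counted because its ratio over 0 UMIs is unbounded, and at the floor of 3 UMIs it stayed under 2-fold. Timp2 had a ratio of 1.62 (1.31 to 2.03).

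Within the monocyte/Mφ-like cells, the genes converged on 1 subcluster. This Timp2+ subcluster, named from Ltc4s, Adgre5, Fn1 and Saa3, markers that the study chose on these samples and none of them among the 8 genes, held 14 naïve cells, 2 cells at 24 h and 127 cells at 72 h. Because cells were grouped on genes that vary with the 8, what follows describes the cells and is no test: all 8 genes were past 2-fold higher than in the other 450 monocyte/Mφ-like cells at 72 h, where 5.33% of genes were higher and 4.31% lower. At 72 h the subcluster made up 22.0% of monocyte/Mφ-like cells and 19.2% of their UMIs. It held 15 of 15 Gata6 UMIs, 82 of 84 Prg4 UMIs, 80 of 83 Serpinb2 UMIs and 103 of 110 Cd5l UMIs. Shares were smaller for Lyve1 (51 of 58), Icam2 (89 of 121) and Fcna (168 of 241), and smallest for Timp2 (443 of 975).

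Over 15 combinations of subcluster and library with at least 20 cells, which leaves out the 14 naïve Timp2+ cells, the Timp2+ subcluster at 72 h ranked first for each of the 8 genes. The naïve Timp2+ cells had higher values for 5 genes, namely Prg4 (164 against 138 CPM), Timp2 (801 against 744), Icam2 (309 against 149), Serpinb2 (218 against 134) and Cd5l (255 against 173). Among those 15 groups, the interval of the 72 h Timp2+ subcluster lay apart from that of the next group for all but Lyve1. Lyve1, at 85.7 CPM (63.8 to 113), overlapped with the 30.9 CPM (6.38 to 90.4) of naïve Cd206+ cells, a value from 3 UMIs. Next came the unnamed Ltc4s subcluster at 24 h for Gata6 (0.707 CPM against 25.2) and for Serpinb2 (12.7 against 134 CPM). By markers, the closest subset of that subcluster (276 cells at 24 h) was Timp2+. It passed for Ltc4s and Fn1 only, short of the 3 markers needed for a name. This depended on the processing. At a resolution of 0.5 and with 3000 variable genes, a cluster with Ltc4s, Tppp3 and Rhoc among its leading genes was named Arg1+. The same held without cells under 500 genes or over 5% mitochondrial UMIs. In each of these settings that cluster passed for Arg1, Ccl9 and Srgn. For Timp2 the order was 744 CPM, then Cd206+ cells in naïve (351 CPM) and at 72 h (287 CPM), which overlapped with each other. Cx3cr1+ cells had 185 CPM of Timp2 in naïve and 140 CPM at 72 h, and no UMI of Gata6, Prg4, Serpinb2, Fcna, Lyve1 or Cd5l in either library. The upper limits of these zeros were 17.0 CPM (70 naïve cells) and 32.4 CPM (20 cells at 72 h). Low levels can therefore not be told from absence.

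The 14 naïve cells of the Timp2+ subcluster differed in their share from gene to gene. They held all 9 Prg4 and all 12 Serpinb2 UMIs of the naïve monocyte/Mφ-like cells, 14 of 16 Cd5l, 14 of 20 Fcna and 17 of 26 Icam2 UMIs, but 44 of 130 Timp2 and 2 of 6 Lyve1 UMIs. Cd206+ cells held 3 of those 6. Between naïve and 72 h within this subcluster Icam2 alone was past 2-fold, with a ratio of 0.483 (0.285 to 0.866), where 1.84% of 5808 genes were lower and 0.981% higher. The other 7 had ratios between 0.615 and 2.35, with intervals that included 1. The 2 cells at 24 h held 7 Serpinb2 UMIs, all in 1 cell, and 1 Prg4 UMI.

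**Figure D2:**
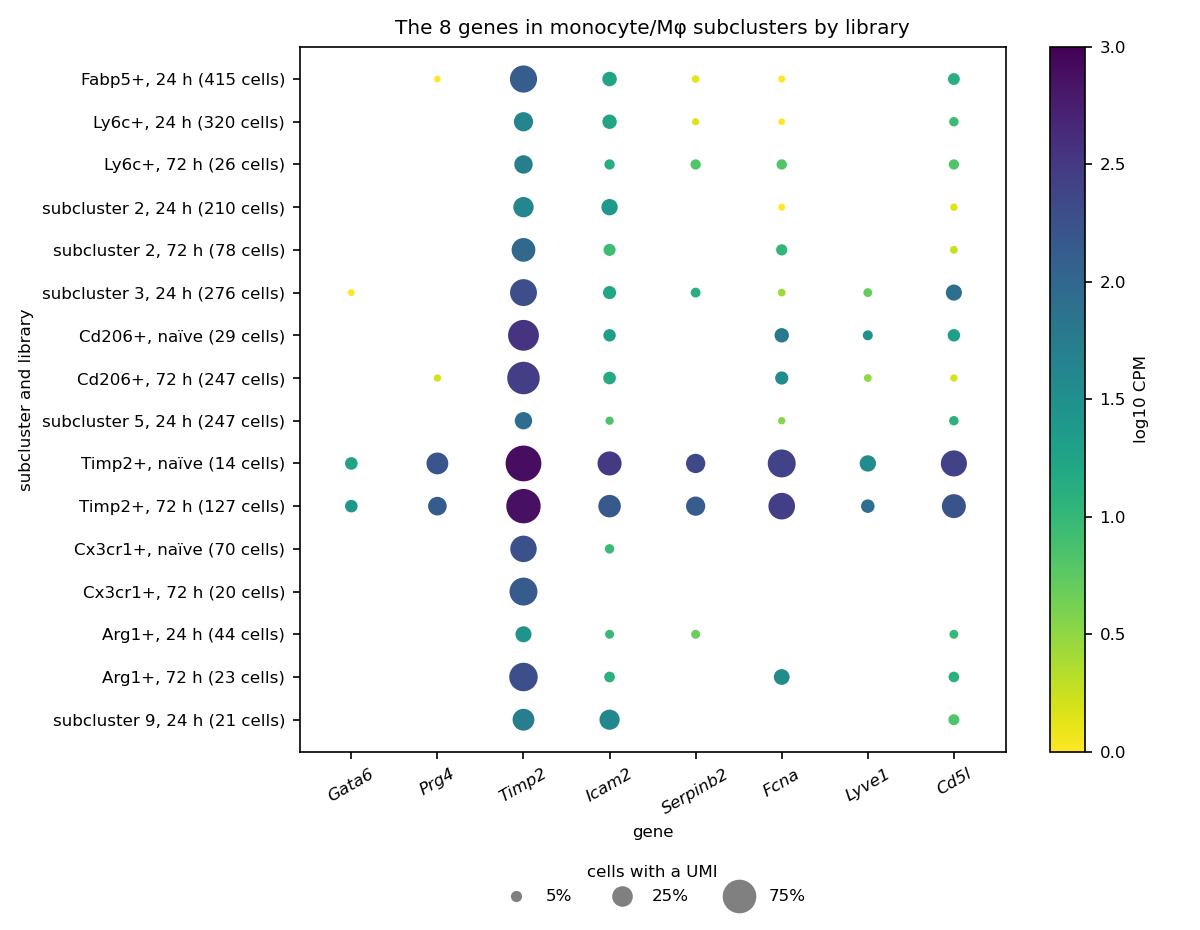
Each dot gives the share of cells with a UMI (area) and the level as log10 CPM (colour) of a gene (x axis) in a monocyte/Mφ subcluster of 1 library (y axis), for groups of at least 20 cells and the 14 naïve Timp2+ cells. The Timp2+ rows of naïve and 72 h carry all 8 genes, Timp2 is read in every row, and Cd5l also stands out in subcluster 3 at 24 h, with 82.0 CPM.

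Co-expression was read in the 577 monocyte/Mφ-like cells of the 72 h library. Of the 27 cells with a Prg4 UMI, 19 also had Cd5l (70.4%, 49.8 to 86.2), 17 had Icam2 (63.0%) and 16 had Serpinb2 (59.3%, 38.8 to 77.6). In the 550 cells without Prg4 these shares were 6.00%, 9.27% and 2.55%. Gata6 lay in the same cells: 7 of its 9 cells had Prg4, 8 had Cd5l, 7 had Icam2 and 6 had Serpinb2. The strongest correlation across these cells was that of Prg4 with Serpinb2, with a Pearson r of 0.62 on the log scale over cells of 1 library that share its depth and free RNA. Of the 27 Prg4 cells, 25 lay in the Timp2+ subcluster. In that subcluster Cd5l was read in 45 of 127 cells, Icam2 in 39 and Serpinb2 in 27. The part of subcluster membership in the shares above was not tested.

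Lyve1 was read mostly with Fcna. Of its 15 cells, 11 had Fcna (73.3%, 44.9 to 92.2, against 14.4% of the 562 cells without Lyve1). In the Timp2+ subcluster, where 11 of the 15 lay, Fcna was read in 57 of 127 cells. Of the Lyve1 cells, 1 had Prg4, 0 had Gata6 and 0 had Serpinb2. With 15 cells, 0 has a Clopper-Pearson upper limit of 21.8%, which includes the 5.34% of Lyve1-negative cells with Serpinb2, so the absence of Serpinb2 itself was not detectable at this depth. Prg4 was read in 4.63%, Cd5l in 8.72% and Icam2 in 11.6% of cells without Lyve1, and in 6.67%, 20% (4.33 to 48.1) and 20% of Lyve1 cells, so none of these shares was lower in Lyve1 cells.

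Fcna and Timp2 were read in both groups of cells. Fcna was found in 12 of 27 Prg4 cells (44.4%) and in 11 of 15 Lyve1 cells, beside 57 of all 127 Timp2+ subcluster cells. Timp2 was read in 23 of 27 Prg4 cells and 11 of 15 Lyve1 cells, against 60.2% of cells without Prg4 and 61.0% of cells without Lyve1.

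In the 536 cells that could be thinned to 1500 UMIs, Prg4 was read in 16 cells and Serpinb2 in 17, with 7 cells in common, and 8 Prg4 cells had Cd5l. Lyve1 was read in 7 cells, 4 with Fcna and 0 with Prg4, Gata6, Serpinb2 or Cd5l. In naïve mice 4 monocyte/Mφ-like cells had Prg4, of which 3 each had Serpinb2, Icam2, Cd5l and Fcna, and the 4 Lyve1 cells held 0 UMIs of Prg4, Gata6 or Serpinb2.

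**Figure D3:**
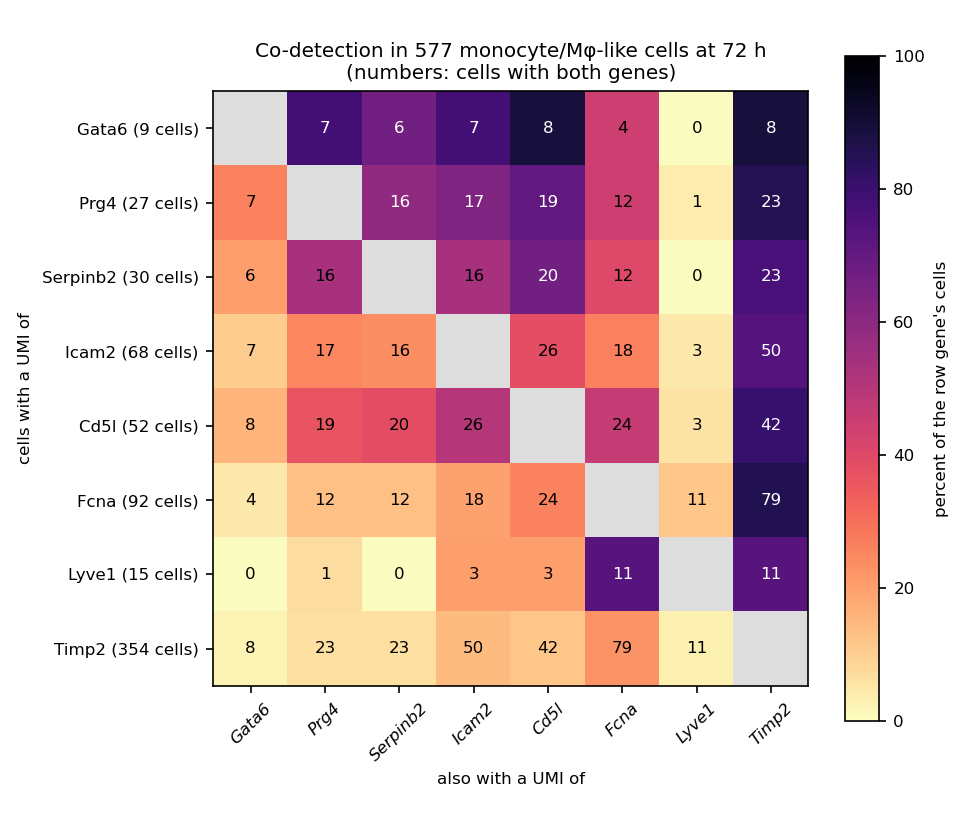
Share of the cells with a UMI of the row gene that also had a UMI of the column gene (colour, percent), with the number of cells holding both, in 577 monocyte/Mφ-like cells at 72 h. Gata6, Prg4, Serpinb2, Icam2 and Cd5l share cells (16 with Prg4 and Serpinb2), Lyve1 shares 11 of its 15 cells with Fcna, and the Timp2 column is dark throughout.

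Counting the 7 genes other than Timp2, 34 monocyte/Mφ-like cells at 72 h had at least 3 of them (5.89%, 4.11 to 8.14), as had 5 in naïve (3.57%, 1.17 to 8.14) and 0 of 1540 at 24 h (Clopper-Pearson upper limit 0.239%). All 34 and all 5 belonged to the Timp2+ subcluster. Of the 34 cells, 9 had 5 or 6 of the genes and 0 had all 7. The richest Gata6 cell had 2 Gata6, 17 Prg4, 7 Serpinb2, 8 Icam2, 4 Cd5l, 3 Fcna, 7 Timp2 and 0 Lyve1 UMIs among 9841.

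Cells with a UMI of Gata6 or Prg4 numbered 4 in naïve, 3 at 24 h and 32 at 72 h, or 0.613%, 0.136% and 2.58% of all cells. At 72 h 29 of them were monocyte/Mφ-like and 27 lay in the Timp2+ subcluster. The 29 cells had a median of 5987 UMIs against 5286.5 in the other 548 monocyte/Mφ-like cells and a median mitochondrial share of 4.53% against 2.90%, and 0 were doublet calls. The part of depth and mitochondrial share in the following ratios was not tested.

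Against those 548 cells, 9 of the 11 tested genes of the cavity list were past 2-fold higher, or 5 after thinning to 1500 UMIs, where 3.88% of 9415 genes were higher and 2.41% lower. Of the 6 genes other than Gata6 and Prg4, Serpinb2 (46.8, 28.7 to 78.6), Cd5l (19.0), Icam2 (14.3) and Fcna (2.40) were past 2-fold, and Timp2 (1.65) and Lyve1 (0.680) were not. Alox15, a lipoxygenase of large cavity Mφs, had 29 UMIs against 5, a ratio of 110 (42.2 to 365). Selp (P-selectin) reached 35.7 (14.2 to 97.2), and F5 (coagulation factor V) 19.7 (11.4 to 34.0). Efnb2 stood at 14.3 and Naip1 at 7.61, from 6 and 4 UMIs. Itgam, Cd9, C4b and F10 lay between 3.31 and 4.57, while Adgre1, the F4/80 antigen, had a ratio of 1.05 (0.787 to 1.39). Timd4, a receptor for phosphatidylserine that is also on the list, was at 0 UMIs in the 29 cells, and Vsig4 and Cxcl13 were not analysed here. Of 8 tested genes on a list of small cavity Mφ genes, 5 were lower: Ccr2 (0.340), the invariant chain gene Cd74 (0.200, 0.183 to 0.219) and the MHC class II genes H2-Aa (0.221), H2-Ab1 (0.258) and H2-Eb1 (0.194). Within the subcluster 2 of 8 were lower, Cd74 (0.492) and Retnla (0.161), where 2.63% of 5561 genes were lower and 2.54% higher.

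The same cells also stood apart within their own subcluster. Compared with its 100 other cells, Serpinb2 was 8.80-fold (5.27 to 15.2), Icam2 4.40-fold (2.83 to 6.90) and Cd5l 3.59-fold (2.39 to 5.40) higher, where 2.54% of 5561 genes were higher and 2.63% lower. Lyve1 had 0 UMIs in the 27 cells against 51 UMIs in 11 of the 100 others, an upper limit of 0.235 for its ratio. That limit counts UMIs and not cells, so it does not show that a smaller share of cells held Lyve1. Fcna (0.600, 0.382 to 0.910) and Timp2 (0.649, 0.50 to 0.832) were not past 2-fold. Of the cavity list 5 of 10 were higher, namely Alox15 (30.3), Selp (7.83), F5 (6.26), C4b (2.67) and F10 (2.30).

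Among the coagulation genes, 5 of 7 tested were higher in the Gata6 or Prg4 cells of the subcluster, with F7 at 2.53 and Thbs1, the matrix protein thrombospondin 1, at 3.07 beside Selp, F5 and F10. Of all 5561 genes tested in this comparison, 2.54% were higher and 2.63% lower. Selp, F5 and F10 are also on the cavity list and were counted there, so the counts of these lists are not separate results. F13a1, the transglutaminase subunit of factor XIII, was lower at 0.358 (0.179 to 0.652). Complement genes split, with C4b higher and C1qa (0.335), C1qb (0.431) and C1qc (0.498) lower. Of the list of Lyve1-type Mφ genes 4 of 7 were lower and 0 higher: Folr2 (0.326), F13a1, Cbr2 (0.305) and Pltp (0.300). Saa3, an acute phase protein, was 4.16-fold higher (3.87 to 4.47). The highest ratio of the 1436 genes with enough UMIs was that of Slpi, a leukocyte protease inhibitor, at 10.1 (8.03 to 12.8).

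Slpi and several others of the 10 highest genes (Pglyrp1, Prtn3, Wfdc21, Cd24a) are also known from neutrophils or their precursors. Of the 6 neutrophil markers, 1 of 5 tested was higher (Mmp9, 3.83), and their summed level was 743 CPM in the Gata6 or Prg4 cells of the subcluster and 846 CPM in its other cells. Their part in these ratios was not tested. Mesothelial markers had 0 UMIs in these cells (3 of 9 were measured), as had all 6 fibroblast markers. The 3 measured endothelial markers held 3 UMIs, or 20.8 CPM, against 15.5 CPM in the other cells of the subcluster, and their part in these ratios was not tested.

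The 15 Lyve1 cells at 72 h, 11 of them in the Timp2+ subcluster, shared some of these genes. Against the other 562 monocyte/Mφ-like cells, Fcna was 14.5-fold (10.9 to 19.2) and Timp2 3.53-fold (2.83 to 4.37) higher, where 2.94% of 9415 genes were higher and 1.32% lower. Of 8 tested Lyve1-type genes 5 were higher: Cbr2 (9.12), Folr2 (7.10), Ednrb (3.97), Pltp (3.16) and F13a1 (2.41). Retnla, a secreted product of alternatively activated Mφs, was 10.6-fold higher (8.95 to 12.5). Of 11 cavity genes C4b (2.5) and Itgam (2.47) were past 2-fold. Alox15 had 0 UMIs, with an upper limit of 3.75 for its ratio, so a difference was not detectable at this depth. Cd74 was low in these cells as well, at 0.255 (0.230 to 0.282). Ednrb was also higher in the Gata6 or Prg4 cells, at 5.91.

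Set directly against each other, the 14 Lyve1 cells without Gata6 or Prg4 had higher Fcna (4.98, 3.17 to 8.05) and Timp2 (2.17, 1.59 to 2.97) than the 29 Gata6 or Prg4 cells, and lower Icam2 (0.140), Cd5l (0.165) and Saa3 (0.0750, 0.0583 to 0.0951), where 3.82% of 2981 genes were higher and 2.55% lower. For Serpinb2, with 0 against 59 UMIs, the ratio had an upper limit of 0.117. This limit counts UMIs and not cells, and the part of subcluster membership in these ratios was not tested.

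**Figure D4:**
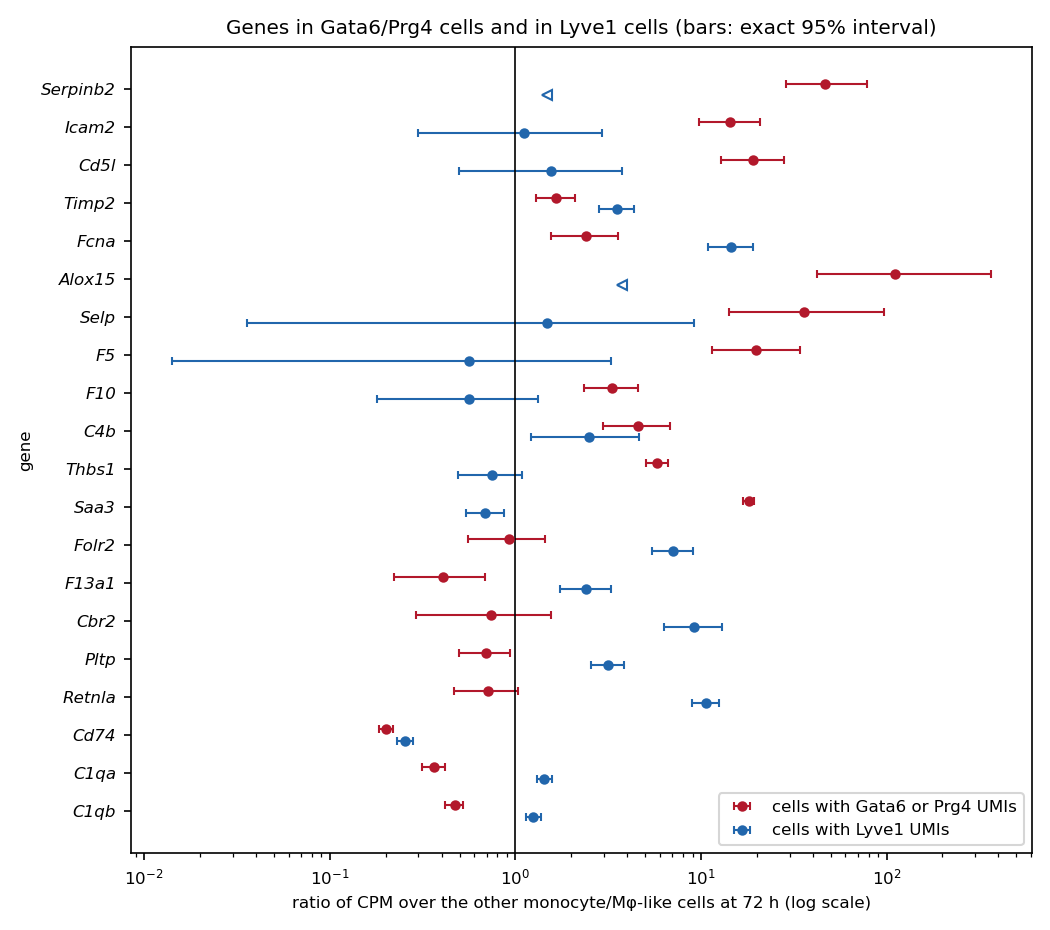
Ratio of CPM (x axis, log scale) in the 29 cells with Gata6 or Prg4 UMIs (red) and in the 15 cells with Lyve1 UMIs (blue), each over the other monocyte/Mφ-like cells at 72 h, for 20 genes picked after their values were seen. Bars are exact 95% intervals and open arrows are upper limits where the cells had 0 UMIs; Serpinb2, Icam2, Cd5l and Alox15 lie far right in red, and Fcna, Folr2, Cbr2 and Retnla far right in blue.

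The genes whose levels over the 15 groups were most like those of each gene were ranked by Pearson r on the log scale among 4475 genes, a description that rests largely on the Timp2+ subcluster at 72 h. For Prg4 these were Alox15 (0.9996), Gm26870 (0.95), Fgfr1 (0.95), Serpinb2 (0.93) and F5 (0.88). Icam2 was most like Ctdspl (0.84), Lyve1 most like Fcna (0.87), and Cd5l most like Car6 (0.94). Timp2 was most like Cebpg (0.95) and Fcna most like Aplp2 (0.92), both of which were also high in other groups: Aplp2 reached 237 CPM outside the subcluster against 364 CPM in it.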

How the data were processed

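Single-cell RNA-seq counts of sorted CD45+ cells were taken as deposited. Per the labels, the authors aligned and counted the reads with Cell Ranger 3.0.2 and filtered the cells in Seurat, and the 3 tables hold unnormalized whole UMI counts for every gene of every cell. The authors dropped cells under 200 genes or over 10% mitochondrial UMIs. Counts were log-normalized in Seurat 5.3.0 (R 4.3.3) for clustering only, on 2000 variable genes without the 8 genes and the cavity list, with 30 principal components for all cells and 20 for monocyte/Mφ-like cells, and a resolution of 0.8. Clusters were named from marker lists (at least 3 markers), T and NK/ILC lists were merged, and the rule that leading genes of another class block a name was limited, after the clusters were seen, to classes with at least 3 detected markers. Scrublet, run in scanpy 1.11.5, called 3, 5 and 8 doublets, too few to rely on, and these cells were kept. UMIs were summed per library and group, intervals computed with scipy 1.17.1 and tested on simulated data. With 1 library per time point no test was run. Genes named are the 8, list members past 2-fold, the 10 highest and lowest genes of a comparison and the genes most like each of the 8 by correlation. Adgre1 and Timd4 are named besides, as list members chosen after their values were seen, and Vsig4 and Cxcl13 as list members that were not analysed here. The 8 genes and the lists were chosen with earlier results of these data known.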

Additional observations from a re-analysis of the deposited data

How the results depend on the processing

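When cells under 500 genes or over 5% mitochondrial UMIs were left out, 1 of the 8 genes (Fcna, 2.58) was past 2-fold higher at 72 h than in naïve, the Timp2+ subcluster had 73 cells at 72 h, 19 cells had Gata6 or Prg4 UMIs and 0 of them Lyve1. In cells thinned to 1500 UMIs, 1 gene (Prg4, 6.10) was past 2-fold higher than in naïve, 18 cells or 3.36% of monocyte/Mφ-like cells had Gata6 or Prg4 UMIs, 0 had these with Lyve1, 5 cavity genes were higher, and the Icam2 ratio over other cells at 72 h turned to 0.978. With fewer UMIs read per cell, thinning itself lowers such counts; the cause of the others was not tested. When each cell counted equally, 4 genes were past 2-fold higher than in naïve, by size alone and without an interval, and Cd5l was 2.27-fold above 24 h. Added after the data were seen, the comparison within the Timp2+ subcluster gave 5 cavity genes and Lyve1 cells gave 2. Another resolution, fewer principal components, 3000 variable genes, the 8 genes kept among them, another seed, Scrublet removal, and leaving out the Fabp5 cluster or the subcluster led by Cd79a moved none of these counts by over 1.5 times, nor did leaving out the dividing cluster, though single ratios moved as given above. No paired analysis was possible because each time point had 1 library. Depth limits statements on Gata6 and Lyve1, with 15 and 58 UMIs at 72 h, and on the 140 naïve cells.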

Other observations

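In clusters named B-like, 6 cells held Fcna or Lyve1 UMIs, 3 in naïve and 3 at 72 h, and the markers of most of them went against that name. Of these, 5 lay in the cluster led by the cell division genes Pclaf, Stmn1 and Top2a and had 3 or 4 of the 4 division markers, 6 to 9 of 11 monocyte/Mφ markers and at most 1 of 6 B cell markers. The deepest, with 10651 UMIs, held 190 UMIs of the C1q genes and 4 of Fcna. Their doublet scores ran from 0.0325 to 0.108, and 0 were called doublets. These cells were chosen after their values were seen.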
